A study of Homo sapiens with 4 samples.

Results

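The MHC class I antigen presentation genes were examined in cells of the human monocytic leukaemia line NOMO-1 (acute myeloid leukaemia) after knock-down of ZFX, a zinc finger transcription factor encoded on the X chromosome. The set held B2M, HLA-E, HLA-F, TAP1, TAP2, TAPBP, TAPBPL, NLRC5, ERAP1 and ERAP2, taken by gene symbol in the platform annotation, with the probe set of highest mean log2 intensity standing for a gene. Of these 10 genes, 8 were measured under a symbol of their own. For HLA-F, the 3 probe sets carried the symbol of HLA-B as well and were not assigned to a gene, and HLA-E was not analysed here. The 8 genes were part of 12892 tested genes, out of 18417 with a symbol of their own, and all 8 passed the filter that left out the dimmest 30% of genes.

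Lentiviral constructs were delivered at a multiplicity of infection of 1, and total RNA was taken 48 h after selection. Cells with ZFX knock-down carried the hairpin SH1 or SH3, with 1 array each. The control group, labelled ZFX wild type, held a GFP virus (LEN-GFP) and a scrambled hairpin (SCR), also with 1 array each. No construct was repeated, so every error given here mixes the spread of constructs with that of arrays. The labels do not say whether the cultures were independent. Values are log2 of the deposited linear intensity, and a difference is the mean of SH1 and SH3 minus the mean of LEN-GFP and SCR. With 2 arrays against 2 an exact permutation test cannot go below a two-sided p of 0.333, so p-values come from limma fitted across all 12892 genes, with Benjamini-Hochberg adjustment over all of them.

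Class I molecules show peptides from inside the cell to T cells, and they are also read by receptors of natural killer cells and monocytes. Peptides made by the proteasome are pumped into the endoplasmic reticulum by the TAP1 and TAP2 transporter and trimmed there by the aminopeptidases ERAP1 and ERAP2. TAPBP (tapasin) and its relative TAPBPL (TAPBPR) help to fit them into a heavy chain held by beta-2 microglobulin, the product of B2M. NLRC5 is the transactivator of class I promoters, where it works with RFX, CREB/ATF and NF-Y factors bound to the SXY module. Most genes of the pathway are induced by interferon.

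ZFX had log2 intensities of 10.13 on SH1 and 10.12 on SH3, against 10.65 on LEN-GFP and 10.66 on SCR. The hairpin arrays lay below both controls and close to each other, at a difference of -0.53 (SE 0.10, limma adjusted p = 0.797). Of 12 myeloid and monocytic markers, 10 were measured, with log2 intensities from 7.27 to 14.37 over the 4 arrays. LYZ (lysozyme) was the highest of them and CD14, the lipopolysaccharide co-receptor of mature monocytes, the lowest, at 7.27 on SH1 and 7.62 on SH3 against 7.35 on LEN-GFP and 7.37 on SCR. MPO, the myeloperoxidase of granules, had 13.30 on SH1 and 12.31 on SH3, against 13.30 on LEN-GFP and 13.36 on SCR, and CSF1R, the receptor of macrophage colony-stimulating factor, had 9.92 and 9.17 against 9.04 and 8.89. MPO was thus lower on SH3 alone, and CSF1R lay above both controls on both hairpins, with SH1 the highest. CD4 and ITGAM were highest on SH3, at 11.07 and 12.39, while on SH1 they had 10.38 and 12.08. On LEN-GFP they had 10.74 and 12.14, and on SCR 10.51 and 11.91. The part of these markers in the class I values was not tested. Markers of other cell types ranged from 5.78 to 7.12 for T cells, 5.33 to 8.70 for B cells, 5.12 to 12.09 for natural killer cells (NKG7 the highest), 6.15 to 8.71 for erythroid cells, 6.18 to 7.75 for megakaryocytes, 5.67 to 9.16 for epithelium (KRT8 the highest) and 6.78 to 8.33 for fibroblasts. Of these 24 measured markers, 14 passed the filter, which left out genes with a mean under 6.70. The files hold no detection calls, and whether a dim gene was expressed at all is unknown.

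limma called none of the 8 class I genes at an adjusted p under 0.05, and none of all genes tested (0 of 12892, 0%). Before adjustment, 779 genes (6.04%) had a limma p under 0.05, among them 1 class I gene, TAP2. Both hairpin arrays lay above both controls for TAP1, TAP2 and NLRC5, or 3 of 8 genes, against 18.2% of all genes tested. Both lay below both controls for 0 of 8, against 19.0% of all genes, so 37.2% of all genes had groups that did not overlap. The mean difference was above 0 for 6 of 8 class I genes, against 49.2% of all genes, and below 0 for ERAP1 and TAPBPL. The median difference was 0.15 for the class I genes and -0.0029 for all genes. It was 0.05 without SH1, 0.24 without SH3, 0.08 without SCR and 0.21 without LEN-GFP.

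**Figure D1:**
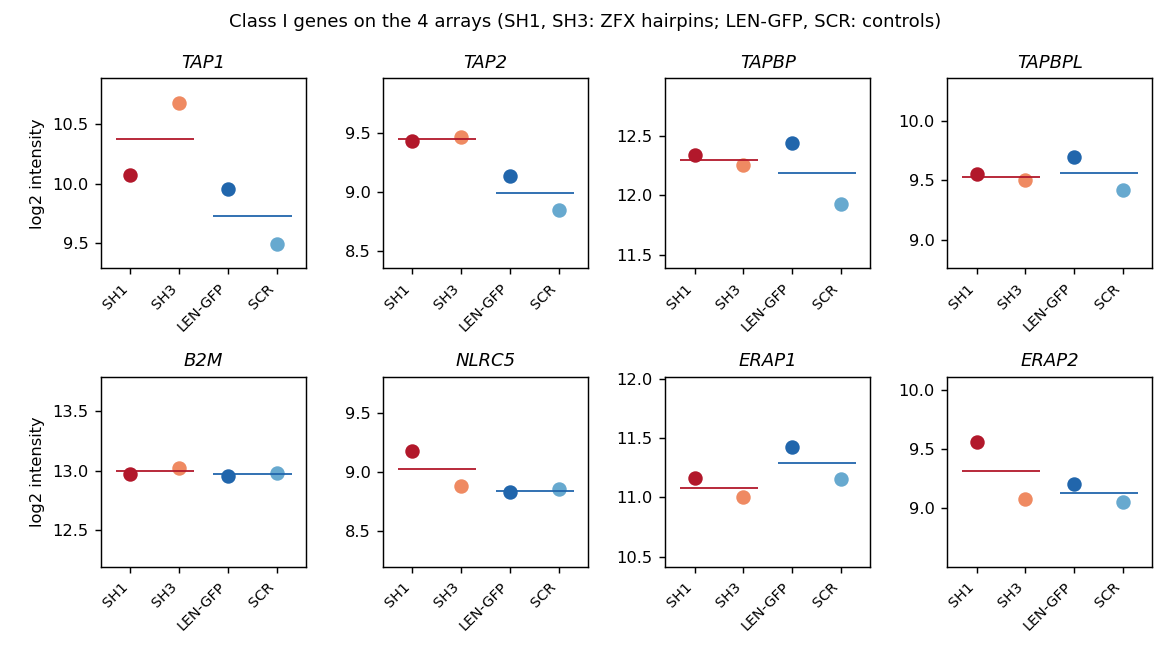
Log2 intensity (y axis) of the 8 class I genes on each array (x axis: hairpins SH1 and SH3, then controls LEN-GFP and SCR). Points are single arrays, lines are group means, and each panel spans the same height on the log2 scale. TAP1 and TAP2 have both hairpin arrays above both controls, at 10.07 and 10.68 against 9.96 and 9.49 for TAP1, while the B2M arrays lie within 12.96 to 13.03.

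The peptide transporter subunits had the widest differences of the set. TAP1, a subunit of the ATP-driven transporter, had log2 intensities of 10.07 on SH1 and 10.68 on SH3, against 9.96 on LEN-GFP and 9.49 on SCR. Both hairpin arrays lay above both controls, SH3 by far the more, while SH1 stood only 0.11 above LEN-GFP and the controls were themselves 0.46 apart. The difference was 0.65 (SE 0.27, 95% interval -0.04 to 1.33, limma adjusted p = 0.797), or 1.57-fold, and 243 of the 12892 genes had a larger difference in either direction. Set alone against both controls, SH3 differed by 0.95 on TAP1 (SE 0.18, limma adjusted p = 0.0111), in a fit that called 13.2% of all genes tested, with 6.27% of all genes called as higher. SH1 alone differed by 0.34 (SE 0.19, limma adjusted p = 0.633), in a fit that called 0.419% of all genes. In such fits the lone array is assumed to vary like the control pair. With 1 array per hairpin, the difference between the hairpins was not tested.

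TAP2, the partner subunit without which no peptide is pumped, had log2 intensities of 9.43 on SH1 and 9.47 on SH3, against 9.13 on LEN-GFP and 8.85 on SCR. The hairpins nearly coincided, 0.03 apart, and the nearest control, LEN-GFP, lay 0.30 below them. The difference was 0.46 (SE 0.14, 95% interval 0.09 to 0.83, limma adjusted p = 0.797), or 1.38-fold, with 683 genes showing a larger one. It was 0.61 without LEN-GFP and 0.32 without SCR. The 3 probe sets of TAP2 differed by 0.43 to 0.47, and the 3 of TAP1 held the same values on every array (equal to 4 decimals of log2), so they are no repeat measurements.

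The promoters of the transporter and loading genes and of B2M are shown because TAP1 and TAP2 lay above both controls on both hairpin arrays while B2M did not, and because these stretches hold the elements through which class I genes are known to be induced. Each line gives the 150 bases before an annotated start, 5′ to 3′ on the gene's strand (RefSeq, GRCh38.p14). Where a gene had several annotated starts, the stretch with the most matches was chosen, so the stretches shown are not a neutral sample of starts. Capitals mark matches, on either strand, to the core of the interferon-stimulated response element (TTTC repeated after a gap of any 2 bases), a single 10-letter form of the kappa-B element of NF-kB, TGACG (the CREB/ATF element of the X2 box) and CCAAT (the NF-Y element of the Y box).
TAP1, chr6:32853705-32853854, minus strand: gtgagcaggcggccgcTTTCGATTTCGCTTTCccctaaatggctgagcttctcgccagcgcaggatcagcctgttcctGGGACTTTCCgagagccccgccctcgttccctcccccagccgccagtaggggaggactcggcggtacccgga
TAP2, chr6:32838740-32838889, minus strand: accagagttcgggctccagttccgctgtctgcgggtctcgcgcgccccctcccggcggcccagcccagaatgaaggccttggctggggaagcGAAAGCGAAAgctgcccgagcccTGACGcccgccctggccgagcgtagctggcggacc
TAPBP, chr6:33314079-33314228, minus strand: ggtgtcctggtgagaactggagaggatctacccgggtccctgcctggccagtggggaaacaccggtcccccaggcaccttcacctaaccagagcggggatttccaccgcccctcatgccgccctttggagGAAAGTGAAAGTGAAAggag
B2M, chr15:44711367-44711516, plus strand: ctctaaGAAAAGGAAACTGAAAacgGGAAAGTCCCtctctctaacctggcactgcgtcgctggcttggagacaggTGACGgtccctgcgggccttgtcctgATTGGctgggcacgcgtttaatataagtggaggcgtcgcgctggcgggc

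In windows of 250 bases before to 50 after a start, which the RefSeq table held for 7 of the 8 genes (11 windows, NLRC5 not among them), the interferon-stimulated response element core matched in TAP1, TAP2, TAPBP, B2M, ERAP1 and ERAP2. That is 54.5% of the 11 windows, against 3.57% of all 35116 promoter windows. In TAP1, TAPBP and B2M a pair of matches overlapped, beginning 134 and 128 bases before the start of TAP1. The form of the kappa-B element searched matched in TAP1 and B2M, 2 of 11 windows, against 0.558% of all windows. Other forms of it were not searched, so the lower-case letters may hold some. TGACG matched in TAP2 and B2M (18.2% of the 11 windows, 24.6% of all) and CCAAT in TAP1, ERAP1 and B2M (27.3%, against 34.6% of all). The interferon-stimulated response element core matched in TAP1 and TAP2, the genes of the set with the widest differences. It also matched in B2M and TAPBP, whose groups overlapped. PSMB9, a neighbour of TAP1 outside the set with a wider difference (0.72), was searched too. It matched CCAAT and TGACG, but neither the interferon-stimulated response element core nor the kappa-B form. The part of these letters in the differences was not tested. A match describes these letters and is no evidence that a factor was bound.

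TAP1 and TAP2 are neighbours in the MHC region of chromosome 6, on either side of the immunoproteasome gene PSMB8, with the immunoproteasome gene PSMB9 next to TAP1. The 4 genes lie within 38021 bases (GRCh38.p14 chr6:32821831-32859851), and TAP1 and PSMB9 run away from each other from starts 488 bases apart. PSMB9, a catalytic subunit of the immunoproteasome, had log2 intensities of 10.91 on SH1 and 11.18 on SH3, against 10.52 on LEN-GFP and 10.14 on SCR. As for TAP1, both hairpins lay above both controls, SH3 was the highest array and SCR the lowest. The difference of PSMB9 was 0.72 (SE 0.18, limma adjusted p = 0.797), and 0.85 for SH3 alone. PSMB8, the next gene, overlapped between the groups, with a difference of 0.14, and with 0.34 on SH1 and -0.06 on SH3 relative to the control mean.

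TAPBP, which bridges the transporter and the empty class I molecule, had log2 intensities of 12.33 on SH1 and 12.26 on SH3, against 12.44 on LEN-GFP and 11.93 on SCR. Both hairpin arrays lay between the controls, which were 0.51 apart, so the difference of 0.11 (SE 0.18, 95% interval -0.35 to 0.58, limma adjusted p = 0.911) was smaller than the distance between the controls. Its sign turned without SCR, to -0.14. TAPBPL, the peptide editor that acts outside the transporter complex, had 9.55 on SH1 and 9.51 on SH3, against 9.70 on LEN-GFP and 9.42 on SCR. The hairpins again lay between the controls, with a difference of -0.03 (SE 0.14, 95% interval -0.40 to 0.34, limma adjusted p = 0.977), and of 0.11 without LEN-GFP.

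B2M, the light chain of every class I molecule, had the narrowest range of the set over the 4 arrays. Its log2 intensity was 12.97 on SH1 and 13.03 on SH3, against 12.96 on LEN-GFP and 12.98 on SCR. The difference was 0.03 (SE 0.07, limma adjusted p = 0.947), with a 95% interval of -0.15 to 0.20. SH1 lay between the controls and SH3 just above them.

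NLRC5, the class I transactivator, had log2 intensities of 9.17 on SH1 and 8.88 on SH3, against 8.83 on LEN-GFP and 8.86 on SCR. Only SH1 stood clear of the others: SH3 was 0.02 above the higher control, so the groups did not overlap by a margin smaller than the 0.03 between the controls. The difference was 0.18 (SE 0.14, 95% interval -0.19 to 0.56, limma adjusted p = 0.833). Alone against both controls, SH1 differed by 0.33 (SE 0.14, limma adjusted p = 0.472) and SH3 by 0.04 (SE 0.14, limma adjusted p = 0.925). NLRC5 signal was highest on SH1 and TAP1 signal on SH3, with 1 array each, and any relation between them was not tested.

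The trimming peptidases had mean differences of opposite sign, and neither passed the test. ERAP1, which shortens long precursors to the length class I molecules hold, had log2 intensities of 11.16 on SH1 and 11.00 on SH3, against 11.43 on LEN-GFP and 11.15 on SCR. SH1 and SCR were nearly the same, SH3 was the lowest and LEN-GFP the highest array, and the groups overlapped. The difference was -0.21 (SE 0.14, 95% interval -0.56 to 0.14, limma adjusted p = 0.809), and -0.07 without LEN-GFP. ERAP2, the related enzyme encoded beside it, had 9.56 on SH1 and 9.08 on SH3, against 9.21 on LEN-GFP and 9.06 on SCR. Only SH1 lay above both controls, and ERAP2 was the gene of the set on which the hairpins went to opposite sides of the control mean, by 0.43 and -0.06. Its difference was 0.19 (SE 0.19, 95% interval -0.32 to 0.69, limma adjusted p = 0.869), and -0.06 without SH1. The annotated spans of the 2 genes overlap on chromosome 5 (chr5:96760813-96935854 for ERAP1 and chr5:96875984-96919716 for ERAP2), and whether probes were shared was not tested.

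**Figure D2:**
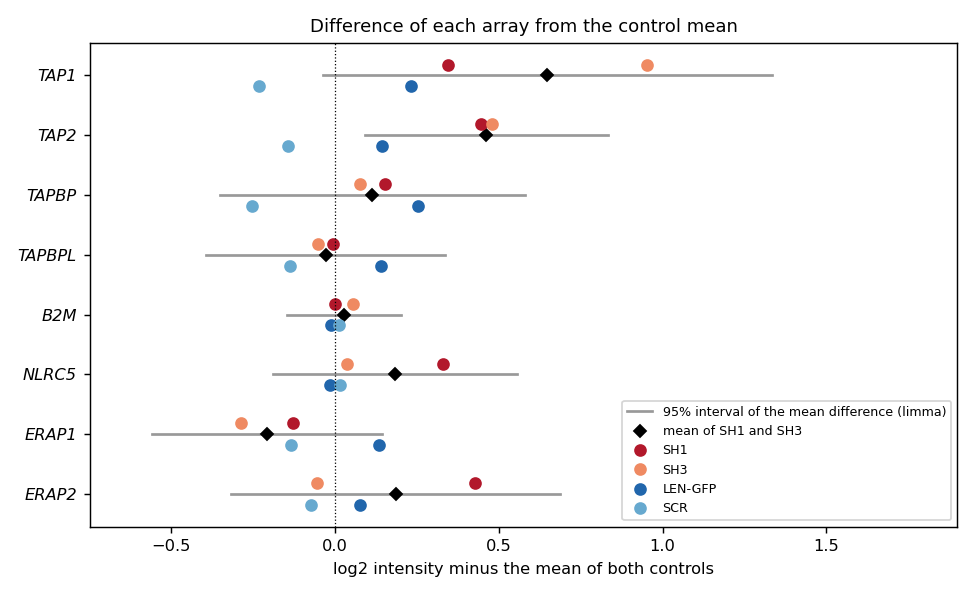
Log2 intensity of each array minus the mean of both controls (x axis) for the 8 class I genes (rows), with SH1 and SH3 drawn above and LEN-GFP and SCR below each line. Diamonds are the mean hairpin difference and grey bars limma's 95% interval, which lies above 0 for TAP2 only, at 0.09 to 0.83.

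The controls differed from each other on most of the set. SCR lay below LEN-GFP on 6 of the 8 genes, with a median SCR minus LEN-GFP of -0.27, against a median of -0.03 and 58.6% of genes over all genes tested. The widest such distances were -0.51 for TAPBP and -0.46 for TAP1, and only B2M and NLRC5 had SCR above LEN-GFP, by 0.03 each. The part of this in the hairpin differences was not tested beyond leaving out each control. TAP1 and TAP2 stayed on the higher side of either control alone: against LEN-GFP the differences were 0.42 and 0.32, and against SCR 0.88 and 0.61. The hairpins, set against the same 2 controls, had medians over the 8 genes of 0.24 for SH1 and 0.05 for SH3, with SH3 above SH1 on 3 genes (TAP1, TAP2 and B2M). In a bulk culture, a different make-up of cells and a different amount of RNA per cell cannot be told apart.

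**Figure D3:**
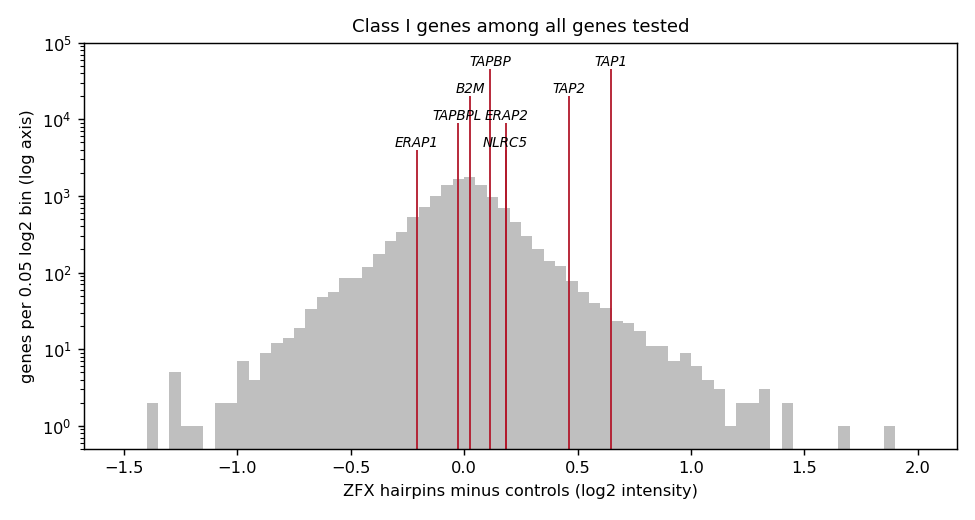
Histogram of the difference between ZFX hairpins and controls (x axis, log2 intensity) over the 12892 genes tested (y axis, genes per bin, log scale), with vertical lines at the 8 class I genes. TAP1 at 0.65 and TAP2 at 0.46 lie in the upper tail and the other 6 genes between -0.21 and 0.19.

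The rest of the pathway was described with 7 lists of 65 genes, of which 55 were tested, 26 with a difference above 0 and 29 below. None passed an adjusted p of 0.05. Before adjustment 8 of 55 had a limma p under 0.05, 3 higher and 5 lower, against 2.78% higher and 3.26% lower of all genes tested. The list median was -0.03, close to the -0.0029 of all genes.

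Interferon receptors, JAK-STAT and IRF factors had the highest list median, 0.19, where SH1 alone had 0.11 and SH3 alone 0.23. Differences were above 0 for 10 of 12 tested genes (49.2% of all genes), and both hairpins lay above both controls for 7 (18.2% of all genes). IRF9, an interferon regulatory factor that binds interferon-stimulated response elements, had 9.61 on SH1 and 9.72 on SH3, against 9.40 on LEN-GFP and 9.20 on SCR. Both hairpins lay above both controls, with a difference of 0.37 (SE 0.13, limma adjusted p = 0.797). The lowest of the list was JAK1, a kinase of the interferon receptors, at -0.05, with 0.08 on SH1 and -0.17 on SH3. IRF1, a direct activator of TAP1 and PSMB9 in interferon-treated cells, had a difference of 0.0029 and is named here after its value was seen.

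The factors of the SXY module, which binds NLRC5 to class I promoters, had a median of -0.07, where SH1 alone had -0.14 and SH3 alone -0.02. Differences were below 0 for 5 of 7 tested genes (6544 of 12892 over all genes tested). Both hairpins lay below both controls for 3 (19.0% of all genes). RFXAP, a subunit of the RFX complex, had 7.96 on SH1 and 7.66 on SH3, against 8.58 on LEN-GFP and 8.12 on SCR. Both hairpins lay below both controls, with a difference of -0.54 (SE 0.20, limma adjusted p = 0.797). It was -0.31 without LEN-GFP. RFX5, the DNA-binding subunit of the same complex, had a difference of 0.13 (SE 0.17), from 0.27 for SH1 and -0.02 for SH3, so the sign differed between subunits of the complex. The NF-kB factors (5 genes, 3 above 0) had a median of 0.16, and its sign differed between the hairpins, at -0.07 on SH1 and 0.36 on SH3. NFKB2 differed by 0.51 (SE 0.29) and NFKB1 by -0.23 (SE 0.12). NFKB2 was higher on SH3 than on any other array, at 8.92 against 8.17 on SH1, and its SH3 array alone differed by 0.89.

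Upstream of the transporter, the immunoproteasome and proteasome activators had a median of 0.06, with 5 of 8 above 0. Its sign differed between the hairpins, at 0.20 on SH1 with 6 of 8 genes above the control mean and -0.04 on SH3 with 2 of 8. PSMB9 was the highest of them, and PSME4, the PA200 activator of nuclear proteasomes, the lowest. PSME4 had 9.95 on SH1 and 10.06 on SH3, against 10.38 on LEN-GFP and 10.45 on SCR. Both hairpins lay at least 0.32 below both controls, with a difference of -0.41 (SE 0.11, limma adjusted p = 0.797). Cytosolic peptidases, which trim or destroy peptides before transport, had a median of -0.17. Differences were below 0 for 7 of 8 genes (6544 of 12892 over all genes tested). That median came from SH3, at -0.23 with 1 of 8 genes above the control mean, while SH1 had -0.0065 with 4 of 8 above it. IDE, the insulin-degrading enzyme, had 10.32 on SH1 and 9.31 on SH3, against 10.72 on LEN-GFP and 10.63 on SCR. Its difference was -0.86 (SE 0.34, limma adjusted p = 0.797), -0.35 without SH3 and -1.37 without SH1. LAP3, a leucine aminopeptidase, was the single gene of this list above 0, at 0.17.

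Endoplasmic reticulum partners of class I loading had the lowest list median, -0.19, where SH1 alone had -0.18 and SH3 alone -0.22. Differences were below 0 for 9 of 10 tested genes (6544 of 12892 over all genes tested). Both hairpins lay below both controls for 5 (19.0% of all genes). PDIA3 and LNPEP, also listed, had no probe set under a symbol of their own and were not tested. The mean difference was thus mostly below 0 for chaperones and translocon genes while it was above 0 for the transporter genes. For the chaperones CALR and CANX, named here after their values were seen, the groups overlapped. Relative to the control mean they had -0.05 and -0.02 on SH1, and -0.40 and -0.53 on SH3. HSPA5 (BiP), the general chaperone of the compartment, had 12.75 on SH1 and 12.41 on SH3, against 13.00 on LEN-GFP and 12.93 on SCR. Both hairpins lay below both controls, with a difference of -0.38 (SE 0.13, limma adjusted p = 0.797). SPPL2A, an intramembrane protease, was the single gene of the list above 0, at 0.12. Whether it takes part in class I loading was not examined here. The class I-like heavy chains (5 of 10 listed genes tested, median 0.01) had 4 genes above 0. MICB, a stress-induced ligand of the NKG2D receptor, had 10.21 on SH1 and 11.22 on SH3, against 10.40 on LEN-GFP and 10.25 on SCR. Only SH3 lay above the controls, the mean difference was 0.39 (SE 0.34, limma adjusted p = 0.846), and without SH3 it was -0.12. CD1D, which presents lipids, was the lowest of the list at -0.16, with 0.06 on SH1 and -0.38 on SH3.

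**Figure D4:**
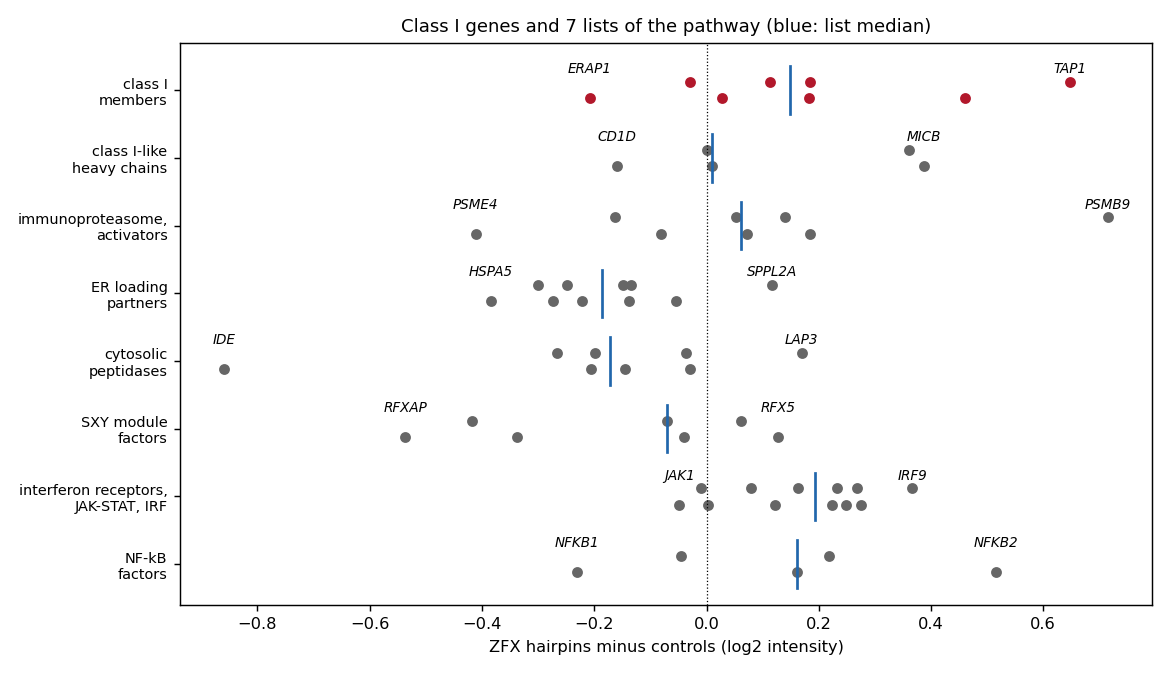
Difference between ZFX hairpins and controls (x axis, log2 intensity) for the 8 class I genes (red) and 7 lists of the pathway (grey, rows), with 1 point per gene and the list median in blue. PSMB9 at 0.72 and IDE at -0.86 are the extremes of the lists, and the endoplasmic reticulum partners lie mostly below 0.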

How the data were processed

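One table was used. The authors deposited a linear intensity for each of 33297 probe sets on 4 arrays, and the submitters' processing notes name Affymetrix Expression Console 1.1 and RMA. RMA usually ends on a log2 scale, and how the linear values were made from it is not stated in these sources. Per the labels, 200 ng of RNA was amplified and labelled with biotin. The median intensity was 184.8 to 189.8 per array. If arrays were scaled to each other, as RMA usually does, a change in total RNA is not visible. The number of arrays limits the precision.

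The log2 of each intensity was taken, without an offset. Probe sets with 1 symbol (19460) gave 18417 genes. Those with several (1754) or none (12083) were not named. The 5525 dimmest genes were left out. limma 3.58.1 in R 4.3.3 (lmFit, eBayes with intensity trend, two-sided, threshold 0.05) had 2 residual degrees of freedom and a prior of 2.95, and was tested on simulated data. The 95% intervals use both. The alternatives were 8 other settings and leaving out each of the 4 arrays.

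The members and lists were chosen with earlier results of these data known. All members were named, and from each list the genes with the highest and the lowest difference, plus any list gene with a gap of at least 0.5 between the groups.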

Additional observations from a re-analysis of the deposited data

How the results depend on the processing

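With 8 alternatives that kept all 4 arrays (no filter, the lowest 50% left out, no trend, no moderation, median centring, quantile normalization, an offset of 16, and the mean of a gene's probe sets), every class I gene and every pathway gene named by rule kept its direction and stayed above an adjusted p of 0.05, except that RFXAP was not tested with the lowest 50% left out. limma's count of genes called stayed at 0 in each, with 575 to 1045 genes at an unadjusted p under 0.05, and with ordinary statistics 686. No scaling moved the median of all genes by more than 0.0029. Leaving out 1 array in turn gave 0 to 1698 called genes (1698 without SH1, 54 without SH3), and a class I median of 0.045 to 0.24. Signs turned with 1 array left out for TAPBP (-0.14 to 0.37), TAPBPL (-0.17 to 0.11), ERAP2 (-0.056 to 0.43), CD1D (-0.38 to 0.062), MICB (-0.12 to 0.89), RFX5 (-0.029 to 0.28) and JAK1 (-0.17 to 0.077), and the cause was not tested. TAP1 stayed above 0, from 0.34 to 0.95, and TAP2 from 0.32 to 0.61. The lowest of these TAP1 values was that without SH3, and the highest that without SH1. Without SH1 the differences were -0.54 for ZFX, 0.85 for PSMB9, 0.89 for MICB and 0.89 for NFKB2. They were -0.55 for HSPA5, -1.37 for IDE and -0.68 for RFXAP. Apart from ZFX, these genes were named for their differences on the same arrays, so these values are no added support. No paired analysis was possible because the labels give no replicate numbers. The files hold no background or detection values, so signal over background is unknown for every gene.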

Other observations

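The classical class I heavy chains were read only by probe sets that the annotation gives to several genes, and their values are assigned to none of them. The 3 probe sets carrying the symbols of HLA-C and HLA-B had log2 intensities of 13.73 to 13.86 on the hairpin arrays, against 13.74 to 13.87 on the controls, with differences between -0.0108 and -0.0050. On each of them the order of the arrays was LEN-GFP or SH3 high and SCR or SH1 low. The 3 probe sets carrying HLA-F and HLA-B had 10.29 to 10.79 on the hairpin arrays, against 10.13 to 10.78 on the controls, with differences between 0.05 and 0.09 and SCR the lowest array on each.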
